A study of Mus musculus with 16 samples.

Results

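The smooth muscle contractile genes are 9 genes that encode parts of the contractile apparatus of smooth muscle, namely ACTA2, ACTG2, MYL9, MYH11, TPM1, TPM2, CALD1, CNN1 and TAGLN. They were found as the target names of 21 probes among the 45281 probes and 30854 target names of a mouse whole-genome bead array. The array had been hybridized with RNA from mouse embryonic stem (ES) cells growing on PA6 cells, which are stromal cells derived from bone marrow, and with RNA from PA6 cells growing alone. The study asked how FGF2 and BMP4 drive endothelial differentiation of the ES cells.

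All cultures were kept in serum-free medium and harvested at day 7, and 16 arrays were measured in all. ES/PA6 co-cultures without growth factors (-GFs) were measured on 2 arrays, those with FGF2 at 20 ng/ml on 3 and those with BMP4 on 2. PA6 mono-cultures were measured on 3 arrays in each of the same 3 conditions. The labels give 10 ng/ml for BMP4 and the methods of the study a lower dose, and the factor was present for the first 3 days. The treatment protocol gives 1 well of each condition to a biological replicate, but no label says which arrays share one. The ES cells carried green fluorescent protein under the promoter of tau, a neuronal gene. A co-culture array reads a mixture of ES progeny and PA6 cells, so that fewer cells of a type and less RNA per cell cannot be told apart. Each array detected 37.3% to 47.0% of its probes. Neural markers were tested for 9 genes, and their mean log2 level was 10.28 to 11.79 on the co-culture arrays and 5.87 to 6.33 on the PA6 arrays. The same mean over 14 stromal genes was 10.53 to 11.15 in co-cultures and 12.66 to 13.21 in PA6.

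In smooth muscle, myosin II motors pull on actin filaments once the regulatory light chain of myosin has been phosphorylated. Tropomyosins lie along the actin filament, and caldesmon and calponin restrain the motor. Most of these genes carry CArG boxes, which bind serum response factor (SRF) together with coactivators of the myocardin family, and several carry the MCAT element CATTCC, which binds TEAD factors. Several of the proteins are not restricted to muscle, since fibroblasts, myofibroblasts and bone-marrow stromal cells use them in stress fibres, whereas MYH11 and CNN1 mark differentiated smooth muscle.

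RefSeq promoter windows were given for 6 of the 9 genes, and those of ACTA2, MYL9 and TPM1 are shown because these are the genes on which the comparisons turned. TAGLN, ACTG2 and MYH11 had no window. Each run is the 250 bases before an annotated transcript start in mouse assembly GRCm38.p6, 5′ to 3′ on the strand of the gene. A CArG box is CC, then 6 bases of A or T, then GG. Capitals mark such boxes on either strand, with at most 1 other base accepted in the core, and CATTCC on either strand.
ACTA2, chr19:34255374-34255623, minus strand: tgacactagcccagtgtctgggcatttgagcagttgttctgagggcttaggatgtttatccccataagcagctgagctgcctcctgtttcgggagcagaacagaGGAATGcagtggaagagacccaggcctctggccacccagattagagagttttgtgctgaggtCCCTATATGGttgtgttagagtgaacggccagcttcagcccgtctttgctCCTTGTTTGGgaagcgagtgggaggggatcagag
MYL9, chr2:156775214-156775463, plus strand: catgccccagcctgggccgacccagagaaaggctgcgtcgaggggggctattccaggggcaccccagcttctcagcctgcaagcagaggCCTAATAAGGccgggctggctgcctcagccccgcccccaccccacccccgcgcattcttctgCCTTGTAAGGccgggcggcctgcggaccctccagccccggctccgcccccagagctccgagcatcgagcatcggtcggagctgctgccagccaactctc
TPM1, chr9:67049214-67049463, minus strand: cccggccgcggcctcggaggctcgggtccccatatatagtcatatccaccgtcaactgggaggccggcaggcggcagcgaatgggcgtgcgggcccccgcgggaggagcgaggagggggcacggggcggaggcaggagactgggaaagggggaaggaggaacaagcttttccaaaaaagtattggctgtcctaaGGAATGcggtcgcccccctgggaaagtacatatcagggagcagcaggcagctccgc
The MYL9 window held a perfect CArG box, CCTAATAAGG, from 161 to 152 bases before the start, and a near match, CCTTGTAAGG, from 99 to 90 bases before it. The ACTA2 window held near matches, CCCTATATGG and CCTTGTTTGG, from 84 to 75 and from 34 to 25 bases before the start, and a CATTCC element 146 to 141 bases before it. The TPM1 window held CATTCC, read on the other strand as GGAATG, 56 to 51 bases before the start and no CArG box. Over 32841 mouse windows of this length, a perfect CArG box was found in 1.47%, a box with at most 1 other base in 8.59% and CATTCC in 12.6%. Among the 7 windows of the contractile genes (CALD1 has 2), the counts were 1, 2 and 3. The windows of CNN1 and TPM2 held none of these letters. ACTA2 spans chr19:34240336-34255585, MYL9 chr2:156775408-156781657 and TPM1 chr9:67022590-67049672, so parts of these windows, and the whole TPM1 window, lie within the annotated gene.

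Of the 21 probes, 12 were detected (detection p under 0.05, a p that ranks a probe among the negative controls) on all 16 arrays, 7 on some and 2 on none. CNN1, calponin 1, has 1 probe, which was detected on no array at raw intensities of 110.3 to 230. MYH11, the smooth muscle myosin heavy chain, was detected by its better probe on 5 arrays, namely replicates 1 and 3 of the co-cultures with FGF2, PA6 with FGF2 replicate 2 and PA6 with BMP4 replicates 1 and 2. On these the log2 level was 7.26, 6.57, 8.55, 7.06 and 8.63, and on the other 11 arrays 5.51 to 6.13. No array without growth factors and no co-culture with BMP4 detected it. Its levels on replicate 2 of PA6 with FGF2 and with BMP4 stood clear of the undetected arrays. No group had all of its arrays detected for CNN1 or MYH11, so neither gene entered a test.

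**Figure D1:**
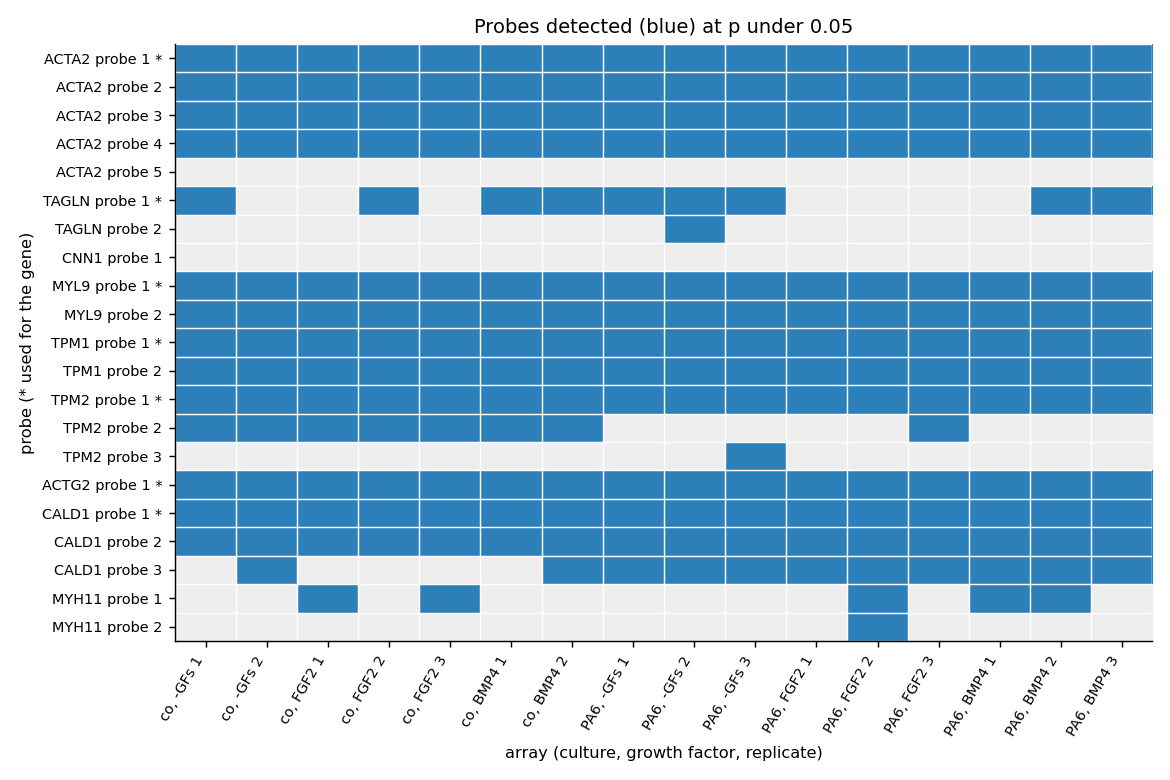
Detection of the 21 probes (rows) of the 9 contractile genes on the 16 arrays (columns, by culture, growth factor and replicate), where blue marks a detection p under 0.05 and a star the probe that stands for the gene. CNN1 was detected on 0 arrays, TPM2 probe 2 on all 7 co-culture arrays and 1 PA6 array, and TAGLN probe 1 on 9 arrays.

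The remaining 7 genes had 15 probes that were detected on all arrays of 1 or more groups, and each gene was read from its brightest probe. Values below are log2 normalized intensities, which can be compared between arrays for 1 probe but not between probes. A gene was called in a comparison when its adjusted p over all 14829 genes tested was under 0.1 and its log2 fold change over 1 in size.

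ACTA2, smooth muscle alpha-actin, is the actin of stress fibres in myofibroblasts. In co-cultures its levels were 12.85 and 14.01 without growth factors, 11.85, 14.10 and 13.28 with FGF2, and 14.22 and 14.08 with BMP4. In PA6 they were 14.70, 15.16 and 15.22 without growth factors, 14.30, 14.90 and 14.66 with FGF2, and 14.65, 15.15 and 15.25 with BMP4. All 7 co-culture arrays lay below all 9 PA6 arrays, by a narrow margin (14.22 against 14.30), and the co-cultures with FGF2 spread over more than 2 log2 units.

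ACTG2, smooth muscle gamma-actin of the gut, stood at 8.66 and 10.33 in co-cultures without growth factors, at 8.81, 11.13 and 9.58 with FGF2 and at 11.00 and 10.10 with BMP4. The PA6 levels of ACTG2 were 10.68, 11.75 and 10.80 without growth factors, 10.41, 11.51 and 10.99 with FGF2, and 10.51, 11.86 and 11.56 with BMP4. The cultures overlapped for this gene, and replicates of 1 group differed by up to 2.3 log2 units.

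MYL9, the regulatory light chain whose phosphorylation starts contraction, gave 10.19 and 10.47 in co-cultures without growth factors, 9.32, 9.63 and 9.60 with FGF2, and 10.42 and 10.88 with BMP4. In PA6 its levels were 13.24, 13.50 and 13.43 without growth factors, 12.72, 13.25 and 12.87 with FGF2, and 12.81, 13.29 and 13.06 with BMP4. The gap between both kinds of culture was wide, and within co-cultures the 3 arrays with FGF2 were the lowest.

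TPM1, tropomyosin alpha-1, gave 12.49 and 12.70 in co-cultures without growth factors, 12.51, 12.88 and 12.82 with FGF2, and 13.20 and 13.37 with BMP4. In PA6 it gave 15.03, 14.78 and 15.25 without growth factors, 14.79, 14.90 and 14.46 with FGF2, and 14.48, 14.72 and 14.52 with BMP4. Both arrays with BMP4 were the highest of the co-cultures, whereas all 3 PA6 arrays with BMP4 lay below the PA6 arrays without growth factors.

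TPM2, beta-tropomyosin, gave 10.94 and 10.59 in co-cultures without growth factors, 10.06, 11.02 and 10.66 with FGF2, and 11.23 and 11.01 with BMP4 on its brightest probe. In PA6 it gave 13.09, 12.91 and 13.14 without growth factors, 12.75, 12.87 and 12.56 with FGF2, and 12.45, 12.82 and 12.72 with BMP4. The PA6 arrays without growth factors were above those with either factor.

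CALD1, caldesmon, gave 8.58 and 8.60 in co-cultures without growth factors, 7.81, 8.56 and 8.31 with FGF2, and 8.93 and 8.66 with BMP4. In PA6 it gave 10.71, 10.43 and 11.07 without growth factors, 10.61, 10.13 and 10.40 with FGF2, and 10.44, 10.70 and 10.40 with BMP4. No co-culture array reached the lowest PA6 array.

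TAGLN, transgelin or SM22-alpha, an early smooth muscle marker that binds actin, was dim. In co-cultures it stood at 9.36 and 6.27 without growth factors, 6.00, 7.83 and 6.19 with FGF2, and 7.82 and 7.00 with BMP4. In PA6 it stood at 6.85, 8.15 and 7.85 without growth factors, 6.40, 6.83 and 6.48 with FGF2, and 6.79, 7.16 and 7.27 with BMP4. It was detected on 9 arrays, including all 3 PA6 arrays without growth factors and none of the 3 with FGF2, and its replicates without growth factors in co-culture differed by more than 3 log2 units.

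**Figure D2:**
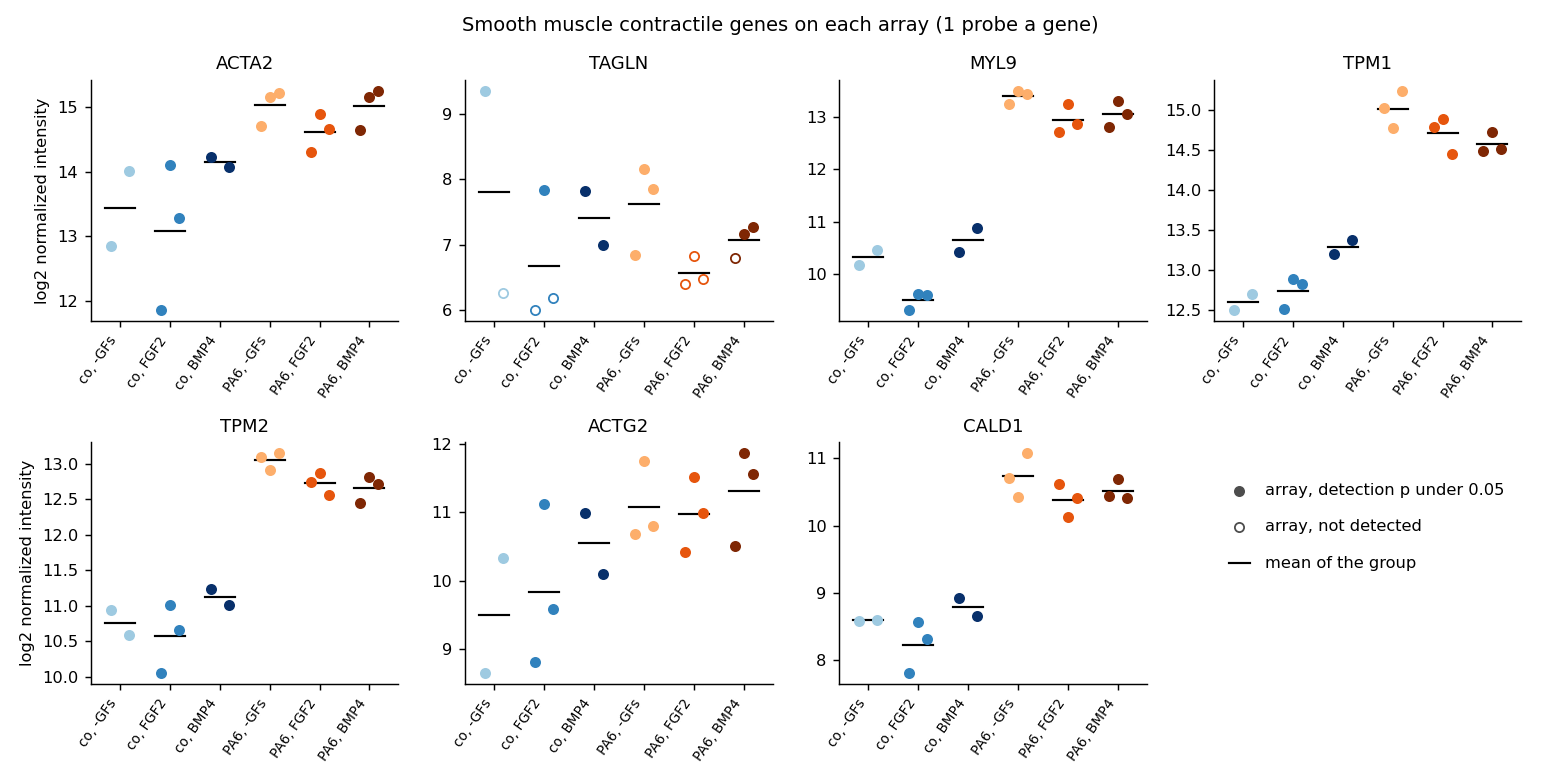
Log2 normalized intensity (vertical axis, a scale for each gene) of the 7 contractile genes that were tested, by culture and growth factor (co, ES/PA6 co-culture), where points are arrays, open points were not detected and bars are group means. For ACTA2, MYL9, TPM1, TPM2 and CALD1 the 7 co-culture arrays lie below the 9 PA6 arrays, whereas TAGLN and ACTG2 overlap.

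Set in order of their means, the 3 PA6 groups stood above the 3 co-culture groups for 6 of the 7 genes. TAGLN was the exception, with its highest mean, 7.81 ± 2.19 (SD, n = 2), in co-cultures without growth factors. PA6 without growth factors had the highest mean for ACTA2, MYL9, TPM1, TPM2 and CALD1, but its arrays overlapped those of the next group for all of them except TPM2. Among co-cultures, those with BMP4 had the highest mean for ACTA2, ACTG2, MYL9, TPM1, TPM2 and CALD1. The next mean was that of -GFs or FGF2, depending on the gene, and the overlap of BMP4 with each is given below beside the share over all genes.

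Co-cultures were compared with PA6 alone, both without growth factors, as a control for the stroma that co-cultures contain. Of the 7 genes, 6 were lower in co-cultures and past both thresholds, against 44.1% of all genes called and 21.8% called lower. The median over the 7 genes was -2.14 on the log2 scale, and over all genes 0.03. MYL9 was 8.36-fold lower (log2 fold change -3.06 ± 0.21, SE, adjusted p = 3.87e-08 by limma). TPM1 was 5.36-fold lower (-2.42 ± 0.19, adjusted p = 1.2e-07), TPM2 4.87-fold (-2.28 ± 0.24, adjusted p = 1.88e-06) and CALD1 4.42-fold (-2.14 ± 0.24, adjusted p = 3.37e-06). The actins were lower by less and with more error, ACTA2 by -1.60 ± 0.50 (adjusted p = 0.0132) and ACTG2 by -1.58 ± 0.67 (adjusted p = 0.0529). TAGLN differed by 0.19 ± 0.73 (adjusted p = 0.834) and was not called.

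The separation held over all conditions for 5 of the 7 genes, whose 7 co-culture arrays were all below the 9 PA6 arrays, against 24.2% of all genes. The calls for both actins rested on co-culture -GFs replicate 1, since without it ACTA2 differed by -1.02 (adjusted p = 0.177) and ACTG2 by -0.75 (adjusted p = 0.456). ACTG2 also lost its call without PA6 -GFs replicate 2 (-1.24, adjusted p = 0.158). TAGLN read -1.35 (adjusted p = 0.0928) without co-culture -GFs replicate 1 and 1.74 (adjusted p = 0.0338) without replicate 2, so its direction was set by which single array was kept.

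Genes of the stroma moved with the contractile genes in this comparison. All 14 stromal genes tested were lower in co-cultures, 12 of them called, with a median of -2.55. The sum of their levels on the linear scale was 75128 to 83231 on the co-culture arrays and 277819 to 309475 on the PA6 arrays, and the sum over the contractile genes was 17712 to 27839 and 81946 to 101323. PDGFRA, a receptor of fibroblasts, was lower by -3.75 ± 0.25 (adjusted p = 2.74e-08), and PDGFRB, its relative on pericytes, by -3.49 ± 0.34 (adjusted p = 1.01e-06). The part of the stromal share in the lower contractile genes was not tested. Of 8 pericyte genes tested, 4 were called lower and 2 higher, against 44.1% of all genes called and 21.8% called lower. RGS5, which defines many pericytes, was detected on no array.

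Probes of 1 gene gave the same direction with a single exception. When each of the 20880 retained probes was tested as its own feature, 13 of the 15 contractile probes were called lower in co-cultures, 1 was called higher and the TAGLN probe was not called, with 44.4% of all probes called. All 12 of the probes detected on all 16 arrays were called lower. CALD1 probe 3 and TPM2 probe 2 passed the filter through 1 kind of culture alone, which fixed their direction here. The 4 retained ACTA2 probes were lower by -1.60 to -1.85, the 3 CALD1 probes by -1.83 to -2.42 and the second probes of MYL9 and TPM1 by -2.90 and -2.19.

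**Figure D3:**
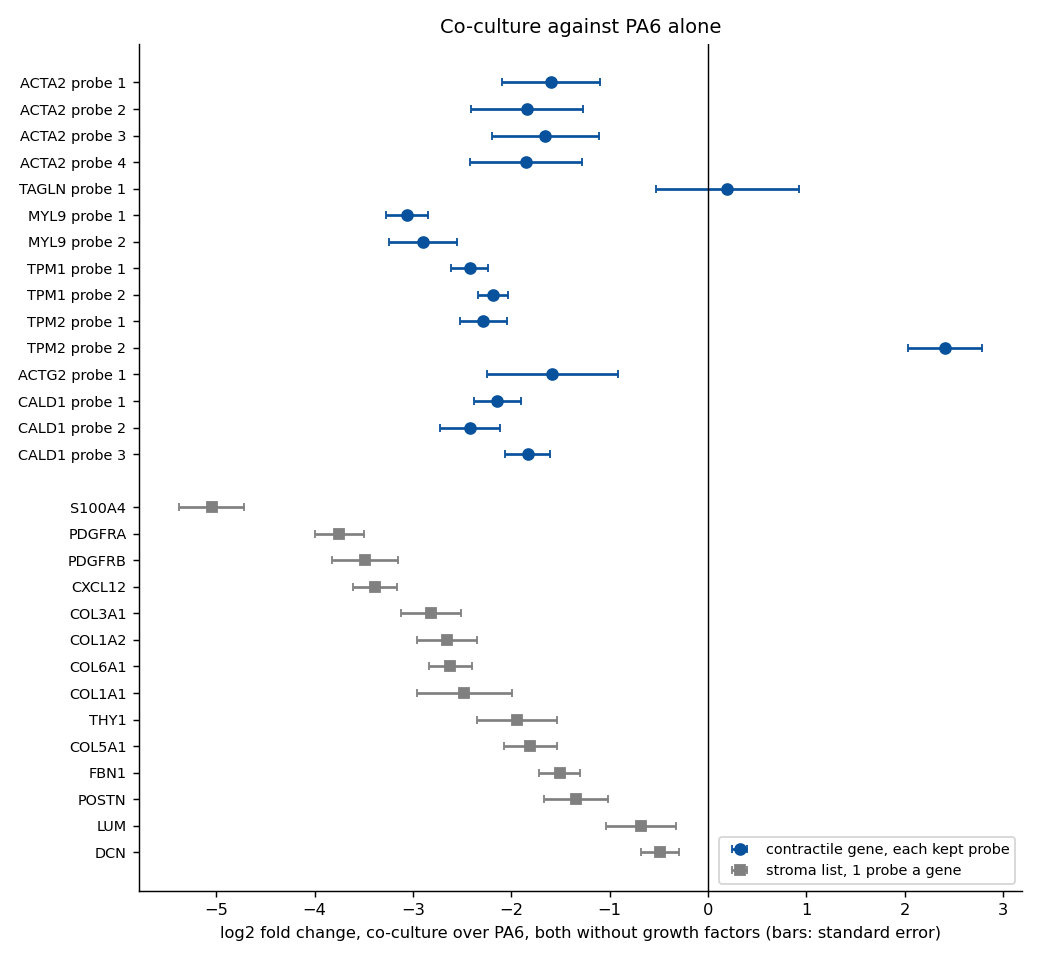
Log2 fold change of co-cultures over PA6 alone (horizontal axis), both without growth factors, for the 15 retained probes of the contractile genes (blue) and the 14 stromal genes (grey), with standard errors as bars. Of the blue points 13 lie between -3.06 and -1.58, TAGLN is near 0 and TPM2 probe 2, undetected in PA6 without growth factors, is at a fitted 2.41.

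The exception was the second probe of TPM2, whose gene gives several spliced isoforms. This probe read 8.28 and 8.64 in co-cultures without growth factors, 6.76, 6.91 and 7.32 with FGF2, and 7.63 and 7.58 with BMP4. In PA6 it read 5.79, 5.83 and 6.54 without growth factors, 6.27, 5.67 and 7.06 with FGF2, and 6.65, 5.68 and 5.87 with BMP4. It was detected on all 7 co-culture arrays and on 1 of 9 PA6 arrays, whereas the first probe was detected on all 16 and was higher in PA6. In co-cultures the groups did not overlap, with -GFs highest and FGF2 lowest.

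Without growth factors it was at least 3.42-fold higher in co-cultures than in PA6, where no -GFs array detected it. It passed the filter through the co-culture groups alone, so its direction between cultures followed from the filter and is given as a description. FGF2 lowered it in co-cultures by -1.47 ± 0.23 (adjusted p = 0.0176), the only contractile probe called for FGF2, where 6.67% of all probes were called. With BMP4 it differed by -0.85 ± 0.25 (adjusted p = 0.172). Its FGF2 effect in co-cultures differed from that in PA6 by -1.75 ± 0.51 (adjusted p = 0.0638), with 7.16% of all probes called, although the PA6 side of that difference was mostly undetected. The first probe gave -0.19 ± 0.30 for FGF2 in co-cultures (adjusted p = 0.775 over all probes). Which transcript each probe reads was not tested, since the deposited table pairs both with the same target name.

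**Figure D4:**
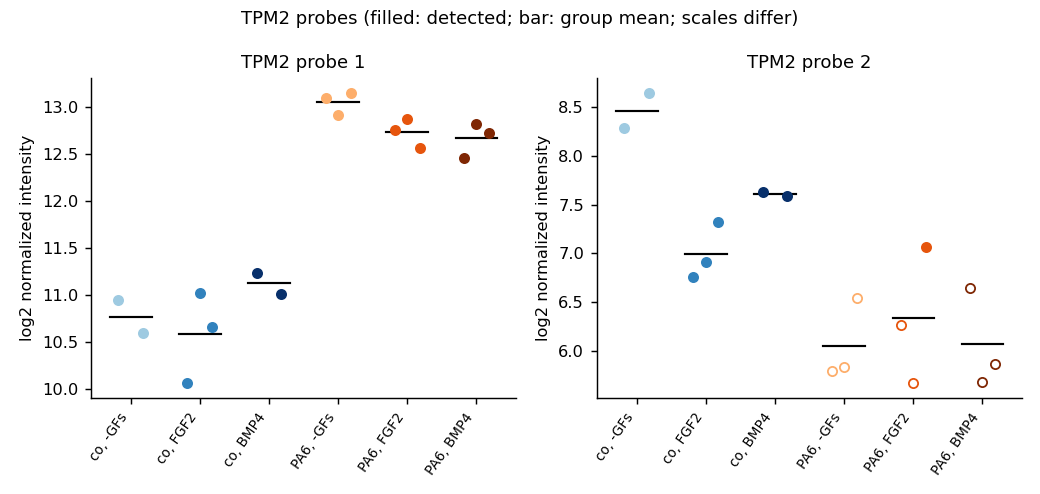
Log2 normalized intensity of TPM2 probe 1 and probe 2 on each array by culture and growth factor, where open points were not detected, bars are group means and the vertical scales differ. Probe 1 is higher on all PA6 arrays, and probe 2 is highest in co-cultures without growth factors, at 8.28 and 8.64.

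For FGF2 in co-cultures, 5 of the 7 genes were lower and 2 higher, and none was called, whereas 7.42% of all genes were. The median over the 7 genes was -0.35 against -0.06 for all genes, and 1 of them had an unadjusted p under 0.05. That gene, MYL9, was lower by -0.81 ± 0.22 (adjusted p = 0.0773), past the p threshold but short of the fold threshold. MYL9 and CALD1 were lower on all 3 FGF2 arrays than on both -GFs arrays, 2 of 7 genes against 22.1% of all genes. ACTA2 differed by -0.35 ± 0.63, with a 95% interval of -1.84 to 1.14, so that neither a fall nor a rise of 2-fold could be told from no change. Its sign turned without FGF2 replicate 1 (0.26) and without -GFs replicate 2 (0.23).

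Markers of other cell types moved with FGF2 in the same co-cultures. Pluripotency genes were higher in 11 of 11 cases, 9 of them called, with a median of 2.39 and a summed level of 66519 to 81522 against 15962 to 17171 without growth factors. Neural genes were lower in 9 of 9 cases, 3 called, with a median of -0.38, and 2 of 7 endothelial genes were called higher. Stromal genes were higher in 10 of 14 cases, none called. The part of these cell types in the levels of the contractile genes was not tested.

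The arrays lie in the deposited table in 3 runs of columns, each with at most 1 array of a group. Within a run, the FGF2 array of ACTA2 was lower than the -GFs array by -0.99 and -0.73 in co-cultures and by -0.40, -0.26 and -0.56 in PA6. ACTA2, MYL9, CALD1 and TAGLN were lower in 2 of 2 co-culture runs and 3 of 3 PA6 runs, 4 of 7 genes against 6.68% of all genes. Run 2 held no co-culture -GFs array, which left out FGF2 replicate 2, the FGF2 array with the highest ACTA2 (14.10). For TAGLN the co-culture difference in run 3 was -0.07, with both arrays undetected. TPM1 was higher with FGF2 in 2 of 2 co-culture runs, and TPM2 and ACTG2 were lower in 1 and higher in 1. With the run as a block, an alternative chosen after seeing the table, ACTA2 differed by -0.76 for FGF2 in co-cultures (adjusted p = 0.135) and none of the 7 genes was called. The labels do not say what the runs are.

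For BMP4 in co-cultures, 6 of the 7 genes were higher, TAGLN was lower, and none was called, with 3.75% of all genes called. The median was 0.36, and near 0 for all genes. TPM1 was higher by 0.69 ± 0.21 (adjusted p = 0.17) and was the only one of the 7 with an unadjusted p under 0.05. ACTA2, TPM1, TPM2 and CALD1 were higher on both BMP4 arrays than on both -GFs arrays, 4 of 7 genes against 22.8% of all genes. The direction was not stable for the actins and CALD1. With the run of columns as a block, which leaves 1 run holding both groups, ACTA2 read -0.25, ACTG2 -0.15 and CALD1 -0.10, against 0.72, 1.05 and 0.20 without it. Within that run itself ACTA2 was higher with BMP4 by 0.07 and CALD1 by 0.06, and ACTG2 differed by -0.23. For TPM2 the mean of its retained probes read -0.25 against 0.36 for the first probe. Stromal genes were higher in 12 of 14 cases with BMP4 in co-cultures, none called, with a median of 0.20. Neural genes were lower in 9 of 9 cases, 3 called, with a median of -1.11, and pluripotency genes were higher in 10 of 11, 3 called, with a median of 1.17. Of 7 endothelial genes 2 were called higher, and adipocyte genes were higher in 6 of 6 cases, none called, with a median of 2.06. The part of these cell types was not tested.

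BMP4 was then compared with FGF2 in co-cultures. All 7 genes were higher with BMP4, with a median of 0.71 against 0.04 for all genes, and 1 was called where 1.44% of all genes were. MYL9 was 2.20-fold higher (1.14 ± 0.22, adjusted p = 0.0916). MYL9, TPM1 and CALD1 did not overlap between both groups, 3 of 7 genes against 16.8%. The call for MYL9 stood near the threshold. It was lost when any of the 7 arrays was left out, at values of 0.91 to 1.36 and adjusted p of 0.114 to 0.434, and under the replicate block (1.18, adjusted p = 0.146), and was kept with the run as a block (1.05, adjusted p = 0.0811). With probes as features 1.13% of probes were called, the first MYL9 probe among them (adjusted p = 0.0993) and the second not (1.50 ± 0.41, adjusted p = 0.178). TPM1 was higher by 0.55 ± 0.19 (adjusted p = 0.262) and ACTA2 by 1.07 ± 0.63 (adjusted p = 0.516). Pluripotency genes were lower with BMP4 in 10 of 11 cases, 2 called, with a median of -1.02. Neural genes were lower in 6 of 9 cases (median -0.31), endothelial in 4 of 7 (-0.28), and none of these was called. Stromal genes were higher in 11 of 14 (0.08) and adipocyte genes in 5 of 6 (2.26), none called. The part of these cell types was not tested.

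The same factors were given to PA6 alone, to read the stroma without ES cells. With FGF2 all 7 contractile genes were lower, with a median of -0.35 and one near 0 for all genes, and none was called, where 0.027% of all genes were. This rests on the brightest probe of each gene. The second probe of TPM1 read 0.01 ± 0.13 and that of TPM2, mostly undetected in PA6, 0.28 ± 0.39. TAGLN was lower by -1.05 ± 0.31 (adjusted p = 0.314, 95% interval -1.76 to -0.34). No FGF2 array detected it, and the -GFs mean was 1.76-fold above the detection level of those arrays. MYL9 was lower by -0.45 ± 0.18 (adjusted p = 0.451). TAGLN and TPM2 were lower on all FGF2 arrays than on all -GFs arrays, 2 of 7 genes against 8.55% of all genes. The 95% intervals of ACTA2, MYL9, TPM1, TPM2 and CALD1 lay within -0.93 and 0.11, which leaves out a 2-fold change in either direction. Stromal genes were lower in 10 of 14 cases, with a median of -0.11, and adipocyte genes in 6 of 6, with a median of -1.55, none of them called. Their part was not tested.

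With BMP4 in PA6, 6 of the 7 genes were lower and ACTG2 was higher, with a median of -0.34, and none was called, as for 0% of all genes. TPM1 was lower by -0.44 ± 0.17 (adjusted p = 0.533) and TPM2 by -0.39 ± 0.15 (adjusted p = 0.532), and these were the genes whose groups did not overlap, 2 of 7 against 8.71% of all genes. On the second probes TPM1 read -0.12 ± 0.13, with overlapping groups, and TPM2, mostly undetected in PA6, read 0.01 ± 0.39. ACTA2 did not move by more than its error (-0.01 ± 0.23, 95% interval -0.52 to 0.51). Stromal genes were lower in 13 of 14 cases, none called, with a median of -0.26. Adipocyte genes were higher in 6 of 6 cases, none called, with a median of 3.07.

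**Figure D5:**
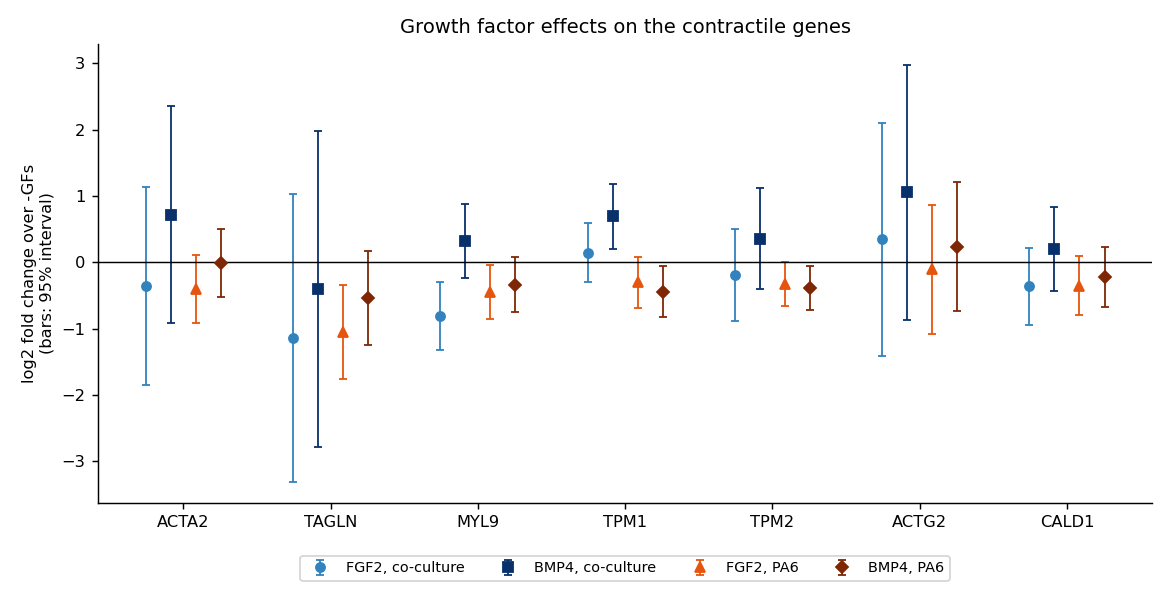
Log2 fold change over -GFs (vertical axis) with its 95% interval for FGF2 and BMP4 in co-cultures (blue) and in PA6 alone (orange and brown), for the 7 contractile genes tested. For TPM1 the BMP4 points lie on opposite sides of 0, at 0.69 in co-cultures and -0.44 in PA6, and the widest intervals are those of TAGLN, ACTG2 and ACTA2 in co-cultures.

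Whether a factor acted differently in both kinds of culture was tested as the difference of its effects over all 16 arrays. For BMP4 the difference was positive for all 7 genes, with a median of 0.73 and one near 0 for all genes, and TPM1 was called, where 4.23% of all genes were. TPM1 was 0.69 higher with BMP4 in co-cultures and 0.44 lower in PA6 on the log2 scale, a difference of 1.13 ± 0.26 (adjusted p = 0.0351). Its second probe gave 0.72 ± 0.21 (adjusted p = 0.11) and was not called, where 3.6% of probes were. The call was lost without co-culture -GFs replicate 1 (adjusted p = 0.123), without co-culture BMP4 replicate 2 (adjusted p = 0.109) and with median scaling (1.38, adjusted p = 0.11, where the median of all genes stood at 0.24), and the mean of both probes gave 0.93 (adjusted p = 0.0307), short of the fold threshold. The stromal list moved alike, with 13 of 14 differences positive, none called, and a median of 0.76. Neural genes had negative differences in 9 of 9 cases, 3 called, with a median of -1.21. Pluripotency genes had positive ones in 10 of 11, 3 called, with a median of 1.14, and 3 of 7 endothelial genes were called with positive differences. The part of these lists in the TPM1 difference was not tested. For FGF2 none of the 7 differences was called, where 7.9% of all genes were, and the lowest adjusted p was 0.327, for TPM1 (0.45 ± 0.25).

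The regulators of the program were read from a list of 24 genes, 15 of them tested. MYOCD, which encodes myocardin, was detected on 3 arrays at most by any probe and was not tested, and neither were MKL1 and MKL2, its relatives. TEAD1 was detected on no array. SRF was tested and not called for FGF2 in co-cultures (-0.38 ± 0.22, adjusted p = 0.344). Without growth factors 9 of the 15 regulators were called lower in co-cultures than in PA6 and none higher, where 21.8% of all genes were called lower. Among them was GATA6 at -3.61 ± 0.22 (adjusted p = 1.17e-08). HEY2, a Notch target, read -3.27 ± 0.25. TBX18, a mural cell factor, was at least 3.55-fold lower, with no -GFs array of co-cultures detecting it. HEY2 and TBX18 are counted among the 9 but passed the filter through PA6 alone. Their direction between cultures followed from the filter and is given as a description. KLF4, which represses contractile genes in smooth muscle and is also a pluripotency factor, was the only regulator called for a growth factor. It was higher in co-cultures by 3.37 ± 0.47 with FGF2 (adjusted p = 0.0111) and by 2.12 ± 0.51 with BMP4 (adjusted p = 0.0998), in the cultures where 9 and 3 of the 11 pluripotency genes were called higher, and lower in co-cultures than in PA6 without growth factors (-3.61 ± 0.52, adjusted p = 3.57e-05). Its effects in co-cultures also differed from those in PA6, by 4.19 ± 0.69 for FGF2 (adjusted p = 0.00302) and 3.28 ± 0.73 for BMP4 (adjusted p = 0.028).

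Other genes of the actin cytoskeleton showed both directions. Of 31 tested, 14 were called lower and 4 higher in co-cultures than in PA6 without growth factors, with a median of -0.89, where 44.1% of all genes were called. LMOD1, leiomodin of smooth muscle, read -3.57 ± 0.27. TAGLN3, the neuronal relative of transgelin, was at least 55.4-fold higher, with no PA6 array without growth factors detecting it. LMOD1 passed the filter through PA6 alone and TAGLN3 through co-cultures alone. Their directions followed from the filter and are given as a description. ANLN, a septin partner in cytokinesis, was higher by 3.97 ± 0.28 (adjusted p = 5.69e-08). With FGF2 in co-cultures 3 of the 31 were called, all higher, a share near the 7.42% of all genes. These were DES, the intermediate filament protein desmin (1.36 ± 0.36, adjusted p = 0.0741), TAGLN2 (1.28 ± 0.27, adjusted p = 0.0404) and PDLIM1 (1.04 ± 0.22, adjusted p = 0.0404). With BMP4 PDLIM1 alone was called (1.85 ± 0.24, adjusted p = 0.0189), and no gene of this list was called in PA6 with either factor.

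The TGFB pathway, an inducer of contractile genes in mesenchymal cells, gave 11 of 22 tested genes called lower and 2 called higher in co-cultures than in PA6, against 44.1% of all genes called and 21.8% called lower. In the difference of FGF2 effects 3 of the 22 were called higher and 1 lower, with 7.9% of all genes called. TGFBI, a secreted target of the pathway, was higher in co-cultures by 1.95 ± 0.28 with FGF2 (adjusted p = 0.0121) and by 2.07 ± 0.31 with BMP4 (adjusted p = 0.0262). TGIF1, a corepressor, was higher with FGF2 (1.35 ± 0.23, adjusted p = 0.0205), and SNAI2 with BMP4 (2.16 ± 0.19, adjusted p = 0.00653). For each factor in co-cultures 2 of the 22 were called, where 7.42% of all genes were called for FGF2 and 3.75% for BMP4. None of the 22 was called in PA6 with either factor. Striated muscle genes were mostly undetected, with 6 of 18 on the array tested, and MYOD1 and MYF5 were at 0 arrays. Of the 6, MYL4 and MYH3, which are expressed in embryonic muscle, were called higher with FGF2 in co-cultures, at 1.92 ± 0.46 (adjusted p = 0.0564) and 1.85 ± 0.27 (adjusted p = 0.0134). In that comparison 7.42% of all genes were called.

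The contractile genes were finally set against each other and against all other genes, as a description over arrays that share library and normalization. Over the 7 co-culture arrays the 21 pairs of contractile genes correlated at -0.02 to 0.93 with a median Pearson r of 0.64, and over the 9 PA6 arrays at -0.33 to 0.93 with a median of 0.52. TPM1 with TPM2 gave 0.93 in PA6, and TPM2 with CALD1 gave 0.93 in co-cultures. Against the mean of the 7 genes over all 16 arrays, TAGLN stood apart with r = 0.19, while the other 6 gave 0.80 to 0.98. That order did not hold within PA6, where over 9 arrays TAGLN gave 0.90 and CALD1 was lowest at 0.37. Over the 7 co-culture arrays TAGLN was lowest at 0.55. Among the genes outside the list most like that mean over 16 arrays were 2900026A02RIK (r = 0.98), CNN2 (0.97), ST3GAL5 (0.97) and SMTN (0.97). Over the 7 co-culture arrays they were RBM41 and 2900026A02RIK (0.98), CDA and LOC383813 (0.97) and ATF5 (0.96). Over the 9 PA6 arrays they were CPZ, FEZ2 and TMEM109 (0.96) and ZNHIT6 and RABL3 (0.94). 2900026A02RIK was the only gene named over both the 16 arrays and the co-cultures, and none of the 5 over PA6 was among either.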

How the data were processed

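RNA of 16 samples was measured on Illumina MouseWG-6 v2.0 BeadChips. The authors read the scans with GenomeStudio 2011.01 (per the labels) and deposited, for each probe and array, a non-normalized mean bead intensity and a detection p-value. The cubic spline normalized values of the study were not used here. The deposited intensities were background corrected by normexp from the detection p-values, quantile normalized, offset by 16 and put on the log2 scale (neqc, limma 3.58.1, R 4.3.3). Probes detected throughout at least 1 group were retained (20880), and the probe with the largest mean stood for its gene (14829 genes). Quantile normalization sets every array to 1 distribution, and bright probes are compressed. Depth on arrays is limited by their number.

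Moderated linear models of limma took the 7 co-culture arrays, the 9 PA6 arrays, or all 16 for the comparison of cultures and the differences of effects, with Benjamini-Hochberg adjustment over all genes. The thresholds were those of the study. The fits were tested on simulated data. Since no label ties an array to a separate culture, p-values measure the spread between these arrays. A gene undetected on a whole group was given a bound, the mean of the other group over the detection level of the undetected arrays. This bound takes no account of the spread between replicates. The members, lists and tests were chosen with earlier results of these data known. All members and probes were described, and for each other list the called genes of largest change, at most 4 a comparison. Some results that this would name are not reported here. Alternatives changed the filter, normalization, probe choice, thresholds, variance prior, arrays fitted and blocks, and left out each array. Array columns carry codes, which were read as initials of culture and factor with the replicate number. Promoter windows and gene positions are from RefSeq tables of GRCm38.p6.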

Additional observations from a re-analysis of the deposited data

Results flagged for a closer look

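TPM1 was listed because its BMP4 effect differed between both kinds of culture, by 1.13 ± 0.26 on the log2 scale (adjusted p = 0.0351, limma). On its brightest probe both co-culture arrays with BMP4 were above the -GFs arrays, and all 3 PA6 arrays with BMP4 were below theirs. Its second probe differed by -0.12 ± 0.13 with BMP4 in PA6, where the groups overlapped. TPM2 was listed because its arrays did the same on the first probe, but the difference was 0.744 ± 0.34 and was not called (adjusted p = 0.305), and its second probe gave -0.87 ± 0.54 (adjusted p = 0.5 over all probes).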

How the results depend on the processing

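The calls of the culture comparison were the most stable, with 5 to 6 of the 7 genes called under 11 alternatives and 5 to 7 when 1 array was left out, where MYL9, TPM1 and CALD1 kept their call throughout. TPM2 turned to 0.062 with the mean of its retained probes, and TAGLN ranged from -1.35 to 1.74 over the arrays left out. For BMP4 against FGF2 in co-cultures, 0 genes were called with detection required on all 16 arrays, without a filter, without background correction, with the mean of retained probes, at an adjusted p under 0.05, under the replicate block (MYL9 1.18) and when any array was left out (0 to 0), and 2 with median scaling, which added ACTA2 (1.42). For the BMP4 difference, 0 genes were called with median scaling and with the mean of probes, and 0 to 1 when 1 array was left out. For FGF2 in co-cultures 1 gene, MYL9, was called with no minimum fold. Over the alternatives the calls among all genes ran from 2 to 574 for BMP4 against FGF2 (214 as reported), 32 to 870 for BMP4 in co-cultures (556), 324 to 1675 for FGF2 in co-cultures (1100), 1 to 32 for FGF2 in PA6 (4), 0 to 6 for BMP4 in PA6 (0), 3480 to 10123 between cultures (6540), 451 to 1627 for the FGF2 difference (1172) and 106 to 713 for the BMP4 difference (628).

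Signs of uncalled values turned in these cases, and the cause was not tested. Median scaling put the median of all genes at up to 0.29 and gave -0.11 for TPM1 under FGF2 in co-cultures, and -0.12 for ACTA2 and 0.069 for CALD1 in the FGF2 difference. Without background correction CALD1 in the FGF2 difference read 0.076 and TAGLN in the BMP4 difference -0.045. The mean of probes gave -0.25 for TPM2 under BMP4 in co-cultures, -0.81 for TPM2 and 0.13 for CALD1 in the FGF2 difference, and -0.062 for TPM2 in the BMP4 difference. The replicate block gave -0.030 for ACTA2 in the FGF2 difference. The run of columns as a block gave -0.24 for ACTG2 under FGF2, -0.25 for ACTA2, -0.15 for ACTG2 and -0.10 for CALD1 under BMP4, all in co-cultures, -0.14 for ACTA2 in the FGF2 difference and -0.17 for TAGLN in the BMP4 difference.

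With each array left out in turn, FGF2 in co-cultures gave -0.93 to 0.26 for ACTA2, -2.68 to 0.41 for TAGLN, -0.41 to 0.072 for TPM2 and -0.49 to 1.18 for ACTG2, and BMP4 gave -1.94 to 1.15 for TAGLN. In PA6, FGF2 gave -0.37 to 0.23 for ACTG2, and BMP4 gave -0.17 to 0.18 for ACTA2 and -0.039 to 0.64 for ACTG2. The FGF2 difference gave -0.53 to 0.67 for ACTA2, -1.64 to 1.45 for TAGLN, -0.085 to 0.39 for TPM2, -0.39 to 1.29 for ACTG2 and -0.18 to 0.20 for CALD1, and the BMP4 difference -1.40 to 1.69 for TAGLN and -0.018 to 1.66 for ACTG2. Where this left 1 array in a group, that array was assumed to vary like the others. Deviations of same-numbered arrays correlated at -0.20 to 0.28 in co-cultures and 0.07 to 0.20 in PA6, and those of arrays in the same run of columns at 0.098 to 0.28 (5 pairs) and 0.07 to 0.20 (9 pairs). In PA6 numbers and runs coincide, in co-cultures they do not. All same-run correlations were above 0, and in PA6 all pairs from different runs were below 0, at -0.14 to -0.01. Not every correlation was over 0.1 in either grouping, so neither was taken as pairs in the main fits. Those fits therefore count any spread shared within a run as error. With the run as a block, the SE of ACTA2 for FGF2 in PA6 was 0.12 against 0.23 without it, and no contractile gene was called in PA6 either way. Apart from MYL9 the replicate block changed no call, and the run block changed none. No chip or batch is named in the labels or headers, so none was fitted as a block. The dim signal of TAGLN, MYH11 and CNN1 limits what can be said of them.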
